A study of Mus musculus with 4 samples.

Results

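Of the 20062 genes in each of 8 deposited tables, 35 encode proteins of the kinetochore, the spindle checkpoint or the machinery that places the centromeric histone. The 35 were chosen by gene name from what their products do, with earlier results of these data known. All of them were found in every table. The study profiled purified hematopoietic stem cells (HSC) of mouse bone marrow one cell at a time, by droplet sequencing and by plate-based SmartSeq2. The tables do not name the assay behind their values. The labels give 4 samples, 2 old and 2 young, isolated at steady state from mice of the Gfp-Lc3 genotype, which carry a fluorescent reporter of autophagosomes; every sample has this genotype. No column of the tables names a sample or an age, so old and young were not compared here, and each value below comes from the authors' comparisons between clusters of cells called c1 to c7. Each of the 7 clusters was set against all other cells, and c1 was also set against c2.

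The kinetochore is the protein structure that ties a chromosome to the spindle when a cell divides. Its inner part, the constitutive centromere-associated network (CCAN), sits on nucleosomes that hold the histone variant CENP-A, and its outer part, built from the Mis12 and Ndc80 complexes, grips microtubules. The spindle checkpoint signals from kinetochores that are not attached and holds back the anaphase-promoting complex until every chromosome is. Most adult HSC are quiescent and divide rarely, so genes used only in mitosis are known to be low in them and to be made mainly by cells in the later part of the cell cycle.

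A gene was called where the authors' deposited adjusted p-value was under 0.05. Fold changes were deposited on a log2 scale that stops at -4 and 4, and 16-fold is thus the highest difference that the tables can show. The tables give no spread, number of cells or depth, and the p-values come from a test not given in the sources used here. Cells are not replicates of a mouse, so a call speaks of the cells profiled. Cell cycle genes may have helped to draw the clusters, and in that case their differences between clusters were set by the clustering. "Well expressed" below means a mean expression no lower than the median over all genes. By a fit to the tables themselves, c1 and c2 held an estimated 40.8% and 33.8% of the cells, and c3 and c4 12% and 10.2%. The small clusters were c5 with 1.66%, c6 with 0.996% and c7 with 0.348%. Marker lists placed the clusters as follows. Of 9 HSC genes, 7 were called higher in c1 and 7 in c2, with 0 called higher in each of the other 5 clusters. In c2, 1 of the 9 was called lower, Slamf1 at -0.67 in the authors' deposited table. Of 16 S phase genes, all were higher in c3 and 15 in c4, and 8 of 9 erythroid genes were higher in c3. Neutrophil genes were higher for 7 of 7 in both c5 and c6, granulocyte and monocyte progenitor genes for 6 of 7 in c5, and B lineage genes for 5 of 7 in c7. Of the 7 progenitor genes, 1 was also called higher in c1, Prtn3 at 1.54 in the authors' deposited table. The labelled cell type is thus marked by 7 of its 9 listed genes in both c1 and c2. Clusters c5 to c7 carried markers of other blood cells.

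Cluster c4 was where these genes were high. Of the 35, 34 were called higher in c4 and 1 lower, with a median log2 fold change of 3.48; the whole table had 24.3% of genes called higher and 10.6% lower, and among well expressed genes, whose median was 0.19, 44.2% were higher. For 14 of the 35 the value stood at the upper limit of 4. Lineage markers moved with them in c4: megakaryocyte genes were called higher for 4 of 4, with a median of 1.08, and erythroid genes for 5 of 9, with a median of 0.57. In c3 the megakaryocyte genes were also higher for 4 of 4 (median 0.76) and the erythroid genes for 8 of 9 (median 1.75). The part of these markers in the result was not tested. All 4 subunits of the Ndc80 complex, which binds microtubules end on, were among the 14 genes at the limit. For Ndc80, Nuf2, Spc24 and Spc25 the authors' deposited table gave 4. The same limit was reached in the authors' deposited table by Cenpa, the histone variant itself, by Cenpe, a kinesin that carries chromosomes along microtubules, and by Cenpf, a large coiled-coil protein of the outer fibrous corona. The checkpoint kinase genes Bub1 and Ttk, the checkpoint gene Bub1b and Sgo1, whose product shields centromeric cohesin from removal, were also at 4 in the authors' deposited table.

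**Figure D1:**
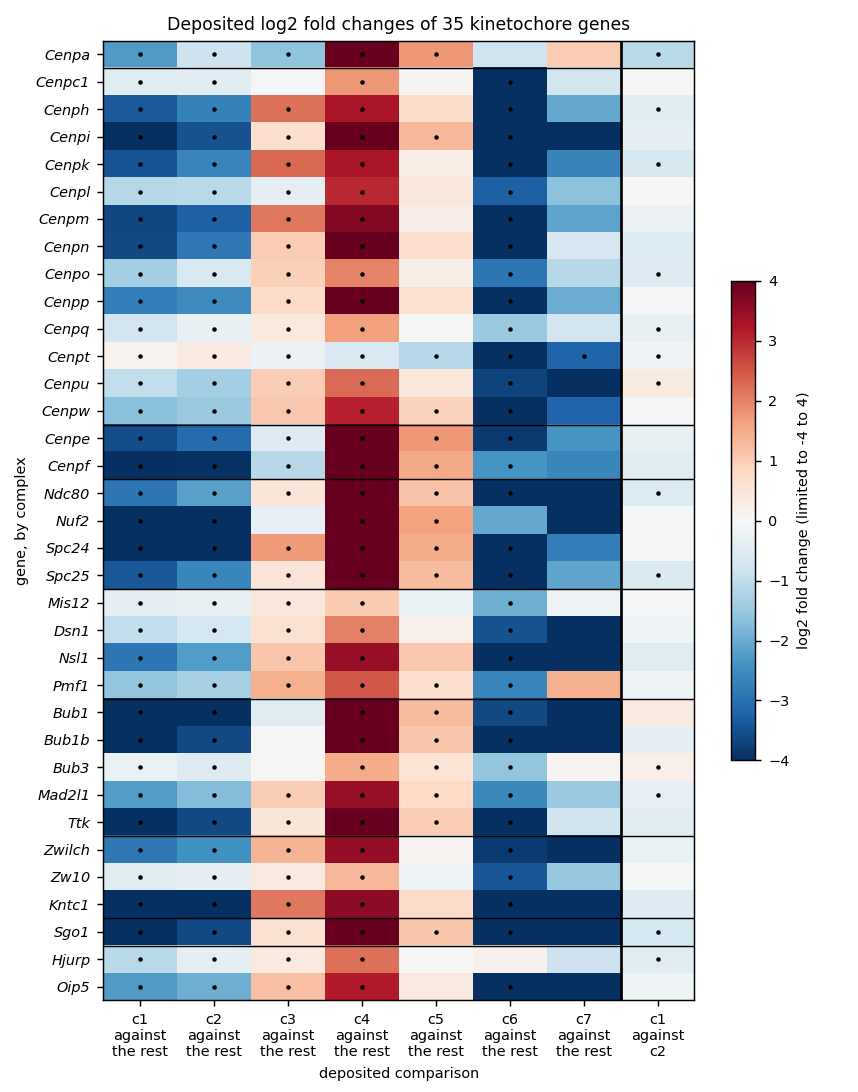
Log2 fold changes of the 35 genes (rows, grouped by complex in the order CENP-A, CCAN, corona, Ndc80 complex, Mis12 complex, checkpoint, RZZ, Sgo1 and CENP-A deposition) in the 8 deposited comparisons (columns); colour gives the value, limited to -4 to 4, and a black point marks an adjusted p-value under 0.05. In c4, 34 of 35 rows are higher, in c1 and c2 34 of 35 are lower, and Cenpt runs the other way in those 3 columns.

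Except for Cenpt and 3 CCAN genes at the limit, the remaining genes were higher in c4 by values below the limit. In the Mis12 complex, the bridge between inner and outer kinetochore, the authors' deposited table gave 3.48 for Nsl1, 2.48 for Pmf1, 2.00 for Dsn1 and 1.04 for Mis12. The RZZ complex, which brings dynein and checkpoint proteins to unattached kinetochores, stood at 3.58 for Kntc1, 3.50 for Zwilch and 1.33 for Zw10 in the authors' deposited table. Bub3, which anchors the Bub1 and Bub1b products at the kinetochore, was at 1.47 and Mad2l1, whose product is the diffusing inhibitor of the checkpoint, at 3.47 in the authors' deposited table. Among the CCAN genes the range was wide. In the authors' deposited table of c4, Cenpi, Cenpn and Cenpp were at 4, Cenpm at 3.66, Cenpk at 3.28, Cenph at 3.25, Cenpw at 3.11 and Cenpl at 3.00. Lower values were found in the same authors' deposited table for Cenpu at 2.27, Cenpo at 1.99, Cenpc1 at 1.73 and Cenpq at 1.63. Of the genes that load new CENP-A, the authors' deposited table gave 2.21 for Hjurp, the CENP-A chaperone, and 3.16 for Oip5, a subunit of the Mis18 complex that marks where CENP-A is loaded.

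The member called lower in c4 was Cenpt, at -0.61 with an adjusted p of 2.04e-09 in the authors' deposited table. CENP-T is a CCAN protein with a histone fold that recruits the Ndc80 complex through its long tail, and it works as a pair with CENP-W. The partner gene Cenpw was at 3.11 in c4, and thus the 2 genes of one complex had opposite signs in the authors' deposited table. Cenpt was also called higher in c1, at 0.15 (adjusted p 0.00634), and in c2, at 0.34 (adjusted p 1.86e-09), in the authors' deposited table. Cenpt lies on chromosome 8 from 105844673 to 105853278 (minus strand, GRCm38), and its exons overlap those of Tsnaxip1 on the opposite strand. Strand-specific counting is a point not given in the sources used here, and the part of reads from Tsnaxip1 was not tested. Exons of Cenpk, Cenpo, Cenpp, Cenpq, Cenpu, Mis12, Zwilch and Oip5 also overlap those of other genes on the opposite strand. Among these genes are Derl2 for Mis12 and Nusap1 for Oip5, and the part of reads from any of them was not tested.

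In the clusters marked by HSC genes most of the set was lower than in all other cells, which include c4, so these values are not independent of those of c4. In c1, 34 of the 35 genes were called lower and 1 higher, with a median of -2.85, beside 29.7% of all genes called lower and 13.3% higher. Well expressed genes had a median of -0.12, and 47.7% of them were lower. At the lower limit in c1 were 8 genes, among them Spc24, Sgo1, Cenpf and Bub1b, each at -4 in the authors' deposited table. In c2 the same 34 genes were called lower and Cenpt higher, with a median of -2.22, beside 21.4% of all genes called lower and 15.9% higher; 31.5% of well expressed genes were lower. Spc24, Nuf2, Bub1 and Kntc1 reached -4 in c2 in the authors' deposited table. The genes least lowered in c1 were Bub3 at -0.26, Mis12 at -0.40, Zw10 at -0.50 and Cenpc1 at -0.50 in the authors' deposited table. In c2 the same authors' deposited table had -0.30 for Cenpq, -0.31 for Mis12, -0.36 for Zw10, -0.39 for Hjurp and -0.41 for Cenpc1. These genes were named after their values were seen. The tables of c1 and c2 are both set against c3 to c7, and each also against the other of the pair. The 2 columns are therefore given side by side only.

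Levels in each cluster were then estimated, so that the same gene could be followed over c1 to c7. Each level was rebuilt from the deposited mean over all cells, the fold change and the estimated share of cells, on a scale where the genes of a cell sum to 10000. Only levels of one gene are compared, since transcript length may affect levels between genes. Rebuilt levels weighted by the shares summed to between 100% and 109% of the deposited mean for the 21 genes below the limit in c4. For the 14 genes at that limit the sums lay between 82.8% and 110%, so these estimates are approximate. Cenpa had 3.25 in c4, computed at the limit of the fold change, 1.65 in c5, 1.03 in c7, 0.34 in c2, 0.299 in c6, 0.182 in c3 and 0.156 in c1. Spc24 had 3.09 in c4 at the limit, 1.31 in c5, 1.26 in c3, 0.0713 in c7 and at most 0.0496, 0.0448 and 0.0309 in c1, c2 and c6. Bub3 varied far less, at 2.55 in c4, 1.58 in c5, 1.18 in c7, 1.13 in c3, 0.976 in c1, 0.85 in c2 and 0.365 in c6. In all, 34 of the 35 genes had their highest level in c4, and Cenpt had its highest in c2, at 0.501.

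**Figure D2:**
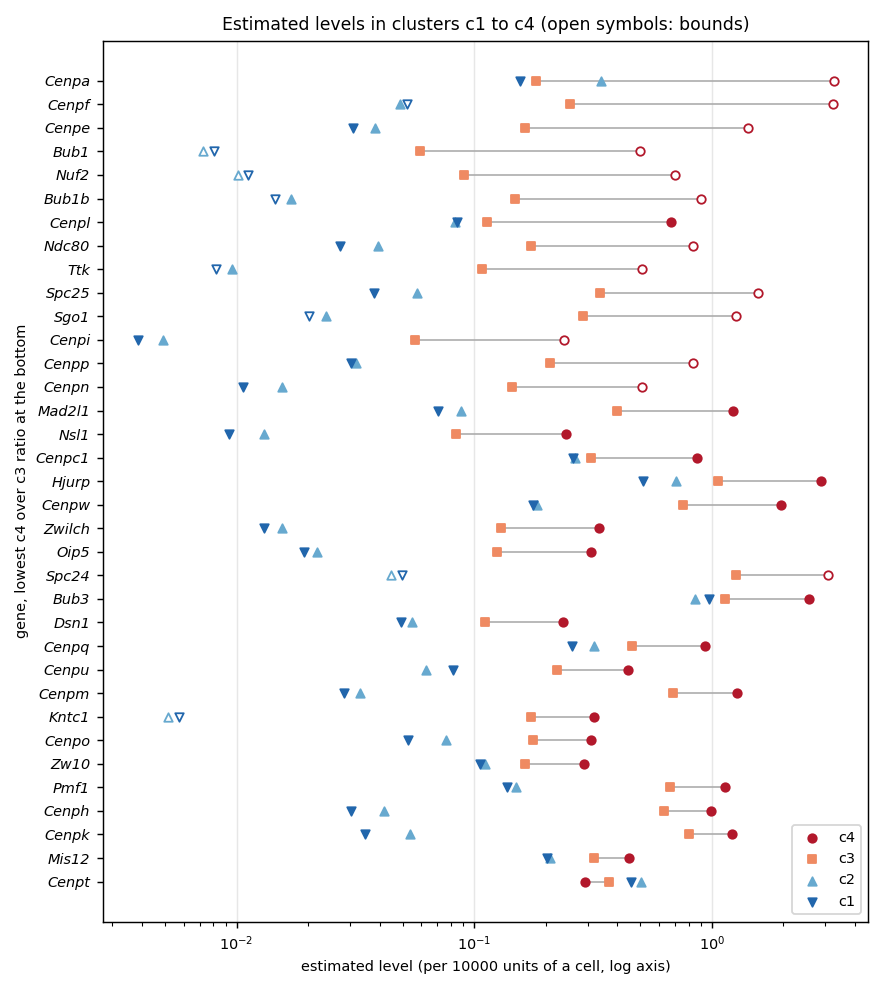
Estimated levels (log axis, per 10000 units of a cell) in c4, c3, c2 and c1 for each of the 35 genes, ordered by the ratio of c4 to c3; open symbols were computed with the deposited fold change at its limit. The grey line joins c3 and c4 and is longest for Cenpa and shortest for Mis12 and Cenpt; levels are to be compared along a row.

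By these estimates, c4 accounted for a median of 56.0% of a gene's deposited mean with 10.2% of the cells. The levels are scaled to the same total in each cell, so these shares are not shares of transcript counts. Genes whose fold change stood at 4 in c4 were at 64.6% by construction. The other 21 ranged from 6.94% for Cenpt and 19.0% for Mis12 to 59.0% for Cenpm, with a median of 38.8%. In these 21, the median share of c3 was 21.1% and that of c1 and c2 combined 42.5%. For the 14 genes at the limit, c1 and c2 combined held a median of 8.35%. Genes of the same complex could differ. The share of c4 was 56.0% for Nsl1 but 19.0% for Mis12, and 57.7% for Kntc1 but 22.3% for Zw10. Exons of Mis12 overlap those of Derl2 on the opposite strand, and the part of reads from Derl2 was not tested.

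**Figure D3:**
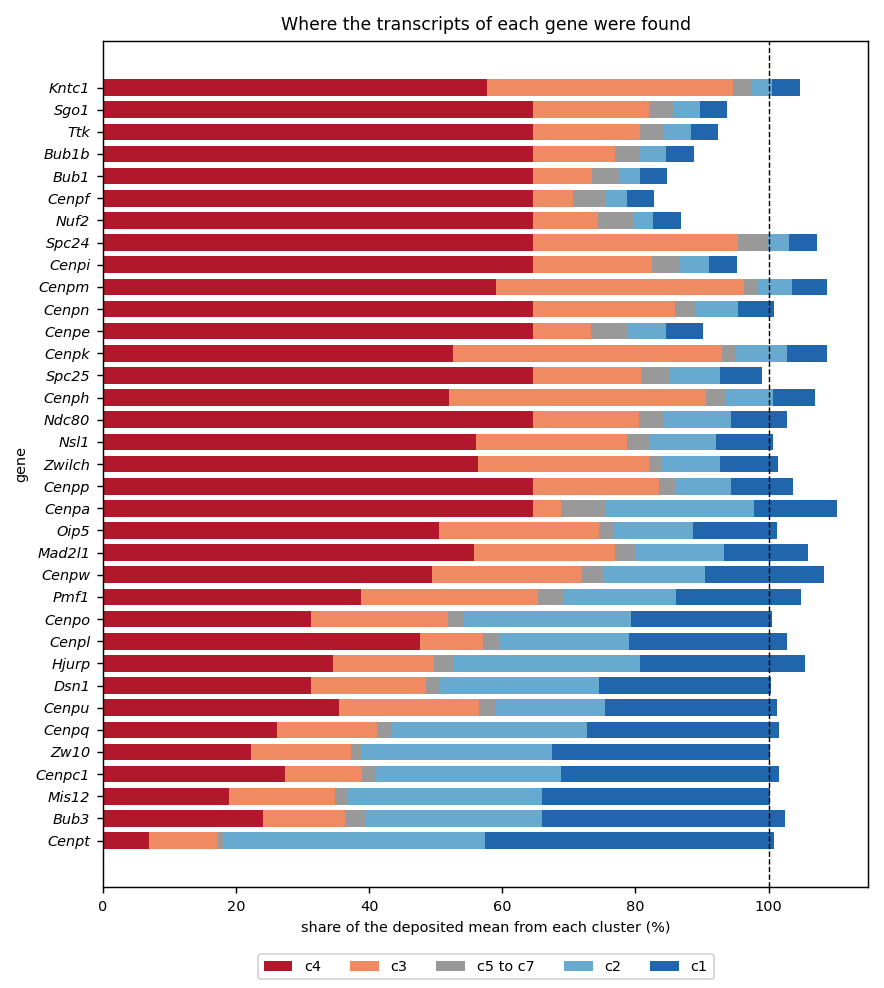
Share of each gene's deposited mean that came from c4, c3, c5 to c7, c2 and c1 (stacked bars, %), ordered by the share of c1; the dashed line is 100%. Bars with c4 at 64.6% are genes at the limit of the fold change in c4. Those of them that end short of the line have a part not accounted for. For Cenpt, Bub3, Mis12 and Cenpc1 at the bottom, most of the deposited mean came from c1 and c2.

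Cluster c3, the other cluster with high S phase genes, divided the kinetochore genes. Of the 35, 25 were called higher in c3, 5 lower and 5 neither way, with a median of 0.61; the shares over all genes were 18.1% higher and 10.2% lower. Well expressed genes were higher for 32.5% and lower for 17.1%, with a median of 0.07. The highest were 3 CCAN genes of the CENP-H, I, K and M group and a subunit of the RZZ complex: the authors' deposited table gave 2.31 for Cenpk (adjusted p 1.56e-105), 2.20 for Cenph (adjusted p 2.1e-78), 2.12 for Cenpm (adjusted p 2.08e-74) and 2.10 for Kntc1 (adjusted p 6.85e-32). Cenpi, the remaining gene of that group, was at 0.68 in the authors' deposited table. Spc24 followed at 1.71, Pmf1 at 1.41, Zwilch at 1.35 and Oip5 at 1.21 in the authors' deposited table.

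Genes called lower in c3, against all other cells including c4, included the histone variant and both genes of the corona. By the estimated levels, Cenpf was at 0.253 in c3, 0.0489 in c2 and at most 0.0519 in c1. Cenpe was at 0.163 in c3, 0.0383 in c2 and 0.031 in c1, and Cenpl at 0.113, 0.083 and 0.0845. Cenpa, at 0.182 in c3, lay between 0.156 in c1 and 0.34 in c2. Cenpt was at 0.369 in c3, below 0.458 in c1 and 0.501 in c2. Cenpa stood at -1.62 (adjusted p 2.53e-19) and Cenpf at -1.11 (adjusted p 1.53e-07) in the authors' deposited table of c3. Cenpe at -0.52, Cenpl at -0.40 and Cenpt at -0.25 were the others called lower in the authors' deposited table, with adjusted p-values of 0.0144, 0.0261 and 0.0174. With an adjusted p under 0.01, Cenpa and Cenpf were the only genes still called lower, and 23 were called higher. Not called in c3 were Bub1 at -0.48, Nuf2 at -0.32, Cenpc1 at -0.07, Bub1b at 0.06 and Bub3 at 0.05 in the authors' deposited table. Within the checkpoint group, 2 of 5 genes were called higher, Mad2l1 at 0.97 and Ttk at 0.49 in the authors' deposited table, while the Mis12 complex was higher for 4 of 4 and the RZZ complex for 3 of 3. Within the Ndc80 complex, Spc24 at 1.71, Spc25 at 0.51 and Ndc80 at 0.47 were called higher in the authors' deposited table, and Nuf2 was not called.

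The estimated level in c4 was above that in c3 for 34 of the 35 genes, by a median of 1.43 on the log2 scale. Computed with c4 at the limit of its fold change, the difference was 4.15 for Cenpa, 3.67 for Cenpf, 3.12 for Cenpe, 3.09 for Bub1 and 2.95 for Nuf2. It was 0.49 for Mis12, 0.61 for Cenpk, 0.66 for Cenph, 0.78 for Pmf1 and 0.81 for Zw10, and for Cenpt it was -0.33. As a level, Cenpf was at 3.23 in c4, computed at the limit, and 0.253 in c3, while Cenpk was at 1.22 in c4 and 0.798 in c3. By complex, the median difference was 3.40 for the corona, 2.24 for the Ndc80 complex, 2.23 for the checkpoint, 1.36 for CENP-A deposition, 1.03 for the CCAN, 0.94 for the Mis12 complex and 0.88 for the RZZ complex. Both genes of the corona, all 4 of the Ndc80 complex, 3 of 5 of the checkpoint and 3 of 13 of the CCAN were computed with c4 at the limit, and none of the Mis12 or RZZ genes, so these medians give no firm order. The 16 S phase genes had a median of -0.72, with 2 of them higher in c4 than in c3. No test of these differences was made, because the 2 tables share cells.

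Promoters are shown for 6 genes: the 3 with the largest difference between c4 and c3, 2 of the 3 highest in c3 and the member that ran against the rest. Cenpk, the highest in c3, is not shown because an exon of another gene lies directly before its start. Each line gives the 200 bases before the RefSeq start on GRCm38.p6, 5′ to 3′ on the gene's own strand. RefSeq starts can differ from those of the GENCODE annotation used for gene positions. The stretches of Cenpm and Cenpt lie wholly inside the GENCODE span of the gene, and those of Cenpa and Cenpe partly. Capitals mark matches, on either strand, to the cell cycle gene homology region (CHR, TTTGAA or TTCGAA), to the CCAAT box (CCAAT) and to an E2F core (TTTCCCGC, TTTGGCGC or TTTCGCGC). CHR elements are known to be bound by the DREAM and MuvB complexes, CCAAT boxes by NF-Y, and E2F sites by E2F factors.
Cenpa, largest difference, chr5:30666686-30666885, plus strand: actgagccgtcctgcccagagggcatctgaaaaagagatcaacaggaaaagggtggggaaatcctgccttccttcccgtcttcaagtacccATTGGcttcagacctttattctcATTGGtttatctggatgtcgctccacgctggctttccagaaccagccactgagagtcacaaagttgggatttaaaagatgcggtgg
Cenpf, second in difference, chr1:189688087-189688286, minus strand: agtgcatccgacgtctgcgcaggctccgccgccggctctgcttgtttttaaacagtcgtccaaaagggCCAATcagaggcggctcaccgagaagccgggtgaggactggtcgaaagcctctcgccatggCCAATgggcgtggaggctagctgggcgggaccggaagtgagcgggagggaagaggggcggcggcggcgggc
Cenpe, next in difference, chr3:135212363-135212562, plus strand: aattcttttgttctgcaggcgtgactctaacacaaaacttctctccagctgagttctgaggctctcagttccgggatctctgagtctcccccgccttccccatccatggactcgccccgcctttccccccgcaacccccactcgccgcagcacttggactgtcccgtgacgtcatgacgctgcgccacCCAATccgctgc
Cenph, high in c3, chr13:100775900-100776099, minus strand: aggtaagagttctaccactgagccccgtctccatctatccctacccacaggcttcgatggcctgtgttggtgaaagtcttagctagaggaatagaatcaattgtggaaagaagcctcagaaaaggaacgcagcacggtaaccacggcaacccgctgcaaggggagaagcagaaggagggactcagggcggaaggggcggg
Cenpm, high in c3, chr15:82244337-82244536, minus strand: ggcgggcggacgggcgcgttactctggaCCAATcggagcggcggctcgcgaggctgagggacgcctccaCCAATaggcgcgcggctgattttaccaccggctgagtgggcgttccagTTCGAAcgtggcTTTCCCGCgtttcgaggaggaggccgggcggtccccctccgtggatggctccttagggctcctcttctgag
Cenpt, lower in c4, chr8:105852009-105852208, minus strand: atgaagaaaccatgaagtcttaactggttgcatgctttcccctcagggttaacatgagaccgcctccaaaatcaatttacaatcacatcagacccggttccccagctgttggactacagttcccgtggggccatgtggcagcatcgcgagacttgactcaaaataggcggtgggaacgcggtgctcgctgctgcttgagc
Cenpa and Cenpf each held a pair of CCAAT boxes before the RefSeq start, with first bases at -109 and -86 and at -132 and -71. Each also held a CHR just after that start, at 17 and 3. Both boxes of Cenpa lie inside the gene's GENCODE span, which begins at 30666777. Cenpe held 1 CCAAT box, at -12, and no CHR. Of the genes high in c3, Cenph held 1 CCAAT box after its start, at 32, and Cenpm held 2 CCAAT boxes, a CHR at -83 and an E2F core at -71. Cenpt held none of these letters in its window from 250 bases before to 50 after the RefSeq start. Bases around its GENCODE start, at 105853278, were not searched. The windows of 4 genes that were higher in c4, Nuf2, Cenpp, Mad2l1 and Cenpo, also held none of these letters.

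Over the 32 of 35 genes with a RefSeq promoter, 18 (56.2%) held a CHR in that 300 base window, against 19.4% of 27025 promoters of all genes. A CCAAT box was found in 24 (75%), against 37.9% of all promoters, and both in 16 (50%), against 7.7%. An E2F core was found in 3 of the 32 (9.38%), against 1.91%. Within 100 bases before to 50 after the start, 15 held a CHR (46.9%, against 8.68% of all promoters) and 20 a CCAAT box (62.5%, against 24%). A match is a stretch of letters and not a bound site. Among the 16 promoters with both motifs were those of Oip5, Sgo1, Ttk, Spc25 and Hjurp, and CHR was not found in those of Cenpk, Cenph, Cenpe and Nuf2.

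**Figure D4:**
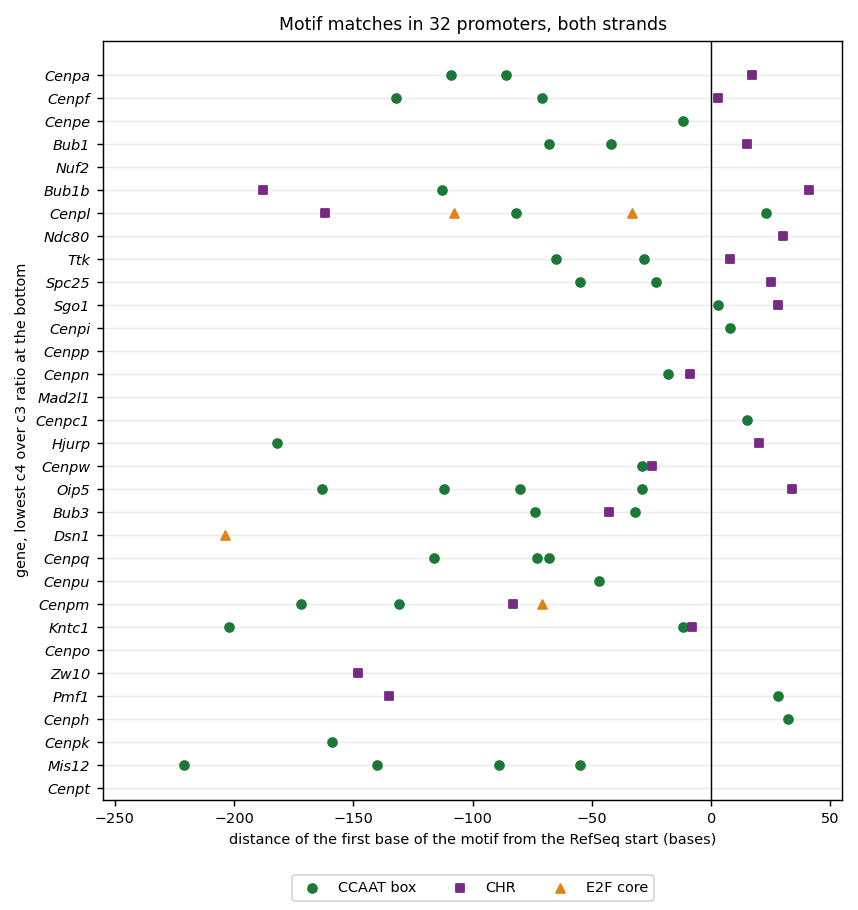
Positions of CCAAT boxes, CHR and E2F cores (symbols, first base of each match on either strand) in bases from the RefSeq start for 32 genes, ordered by the ratio of the c4 to the c3 level. Genes with no match stand at both ends of the order (Nuf2 near the top, Cenpt at the bottom) and between them (Cenpp, Mad2l1 and Cenpo).

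Cluster c5, which carried the granulocyte and monocyte markers, also had part of the set high. Of the 35, 16 were called higher and 1 lower, with a median of 0.67, beside 7.17% of all genes called higher and 9.3% lower. Well expressed genes were higher for 10.5%, with a median of -0.24. The highest were Cenpe and Cenpa, both at 1.74, Nuf2 at 1.61 and Cenpf at 1.52 in the authors' deposited table of c5. All 4 genes of the Ndc80 complex and all 5 of the checkpoint group were called higher, and 2 of 13 CCAN genes, Cenpi at 1.34 and Cenpw at 0.92 in the authors' deposited table. None of the RZZ genes was called by the authors' adjusted p-value, with Kntc1 at 0.77, Zwilch at 0.12 and Zw10 at -0.16 in the authors' deposited table. Cenpt was lower, at -1.14 (adjusted p 0.000258) in the authors' deposited table. Among the 25 genes called higher in c3, 9 were also called higher in c5, beside 16 of all 35 members. The 9 included Spc24 at 1.47 and Pmf1 at 0.67 in the authors' deposited table. Such an overlap over all genes was not counted. The tables of c3 and c5 share most of the cells they are set against. In c5, 2 of the 16 S phase genes were called higher. With an adjusted p under 0.01, 10 of the 16 calls were left: all 4 of the Ndc80 complex and both of the corona, but 1 of 5 of the checkpoint group and 1 of 13 CCAN genes. The difference between complexes was not tested. Markers of T and NK cells were also higher in c5 for 3 of 4, with a median of 4, and their part in these values was not tested.

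In c6, with neutrophil markers, 32 of the 35 genes were called lower and none higher, and 18 stood at the lower limit. The background there was large: the calls over all genes were 35.7% lower and 5.2% higher, with a median of -4, and 69% of well expressed genes were lower, with a median of -2.24. Cenpt, Cenpc1, Cenpw and Spc24 were at -4 in the authors' deposited table of c6. The 3 genes not called were Hjurp at 0.16 (adjusted p 0.813), Cenpa at -0.79 (adjusted p 0.242) and Nuf2 at -2.04 (adjusted p 0.0828) in the authors' deposited table. In c7, with B lineage markers, 1 of 35 was called, Cenpt at -3.20 (adjusted p 0.0197) in the authors' deposited table. There 5.16% of all genes were called lower and 1.02% higher. Values of 1.41 for Pmf1 and 1.00 for Cenpa in c7 were not called, with adjusted p-values of 0.274 and 0.624 in the authors' deposited table, and 12 of the 35 stood at the lower limit. This cluster was estimated at 0.348% of the cells, and a difference that misses the threshold there is not shown to be absent.

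The direct comparison of c1 with c2 found smaller differences. Of the 35 genes, 11 were called lower in c1 and 2 higher, with a median of -0.29, beside 22% of all genes called lower and 15.4% higher. Of well expressed genes 37.2% were lower and 21.8% higher, with a median of -0.07, so the share of members called lower, 11 of 35, was below that background. Cenpa differed most, at -1.09 (adjusted p 1.07e-37) in the authors' deposited table. Its estimated level was 0.156 in c1 and 0.34 in c2, beside 0.182 in c3. Sgo1 at -0.71 (adjusted p 0.0132), Cenpk at -0.63 (adjusted p 0.000268) and Spc25 at -0.58 (adjusted p 0.000889) came next in the authors' deposited table. Of these, Sgo1 stood at the lower limit in c1 against the rest, so its value compares very low levels. Hjurp, the chaperone of CENP-A, was at -0.43 (adjusted p 2.95e-20) in the authors' deposited table. The pair called higher in c1 were Cenpu at 0.37 (adjusted p 0.00538) and Bub3 at 0.19 (adjusted p 4.59e-07) in the authors' deposited table. No gene of the Mis12 complex, the RZZ complex or the corona was called by the authors' adjusted p-value, and their values ran from -0.53 for Kntc1 to -0.04 for Mis12 in the authors' deposited table. Cenpa was the only call of these 13 with an absolute value of 1 or more.

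**Figure D5:**
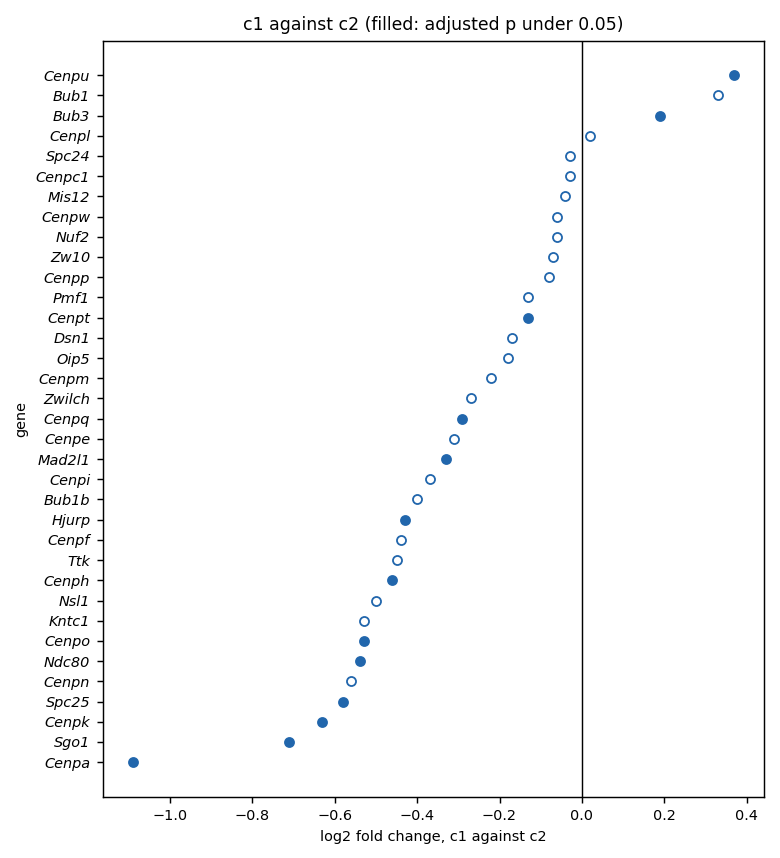
Deposited log2 fold changes of the 35 genes in c1 against c2, sorted by value; filled points have an adjusted p-value under 0.05. Cenpa stands apart at -1.09, and the others lie between -0.71 and 0.37.

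Other genes of the kinetochore and checkpoint, from a second list of which 17 were in the tables, were called higher in c4 for 17 of 17, with a median of 2.41, beside 24.3% of all genes. The authors' deposited table of c4 gave 4 for Knl1, the scaffold of the outer kinetochore, Ska1, Ska3 and Sgo2a. In c3, 9 of the 17 were higher and 1 lower, beside 18.1% and 10.2% of all genes, led by Cenps at 2.62, Trip13 at 1.28, Itgb3bp at 0.87 and Cenpx at 0.80, with Ska1 at -0.57, in the authors' deposited table. Cenps and Cenpx encode histone-fold partners of CENP-T and CENP-W. In c1, 14 were lower and 2 higher, beside 29.7% and 13.3% of all genes: Bod1 at 0.18 and Cenpb at 0.11 in the authors' deposited table. In c1 against c2, 5 of the 17 were higher and 1 lower, beside 15.4% and 22% of all genes. The highest called there were Cenpb at 0.32, Itgb3bp at 0.28, Cenpx at 0.27 and Mad1l1 at 0.26 in the authors' deposited table, with Zwint at -0.13. The chromosomal passenger complex, which corrects faulty attachments, was higher in c4 for 4 of 4 and in c5 for 4 of 4, beside 24.3% and 7.17% of all genes. Birc5 was at 2.21 in c5, Cdca8 at 2.00, Aurkb at 1.80 and Incenp at 1.40 in the authors' deposited table. In c3 it had 1 gene lower and none higher by the authors' adjusted p-value, Incenp at -0.33 in the authors' deposited table. This value and that of Ska1 in c3 are against cells that include c4.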

How the data were processed

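The authors' deposited tables hold, for each gene, a mean expression on a log2 scale, a log2 fold change limited to -4 to 4, and a p-value with its Benjamini-Hochberg adjustment. The log2 scale of the mean was read from the values, since 2 raised to the column summed to 10000. All 8 tables hold identical means, with an error text in place of the mean for 8 genes. Recomputed adjusted p-values matched the deposited ones to within 4.44e-15. The tools GSNAP, HTSeq and Scanpy and the build GRCm38.p4 are named, with no role, per the submitters' processing notes. Cell filters, doublet handling, cell numbers and depth, all not given in the sources used here, leave no interval to print.

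No new test was made. Members were counted per direction beside the same share over all genes. Cluster shares were fitted by least squares over 990 genes with a log2 mean between -5 and -3 and no fold change at a limit. They are the weights that make the cluster levels average to the overall mean. The fit was also run on simulated data, where levels were checked only for c1 to c4 and for genes at no limit. Levels in c5 to c7 and levels of genes at a limit were not checked there. Positions came from GENCODE M21 (GRCm38), and promoters from RefSeq on GRCm38.p6. Python 3.11.15, numpy 2.4.6, pandas 2.3.3, scipy 1.17.1 and matplotlib 3.10.9 were used.

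The members and lists were chosen with earlier results of these data known. Any member could be named. In each table the 4 called members with the largest absolute change in each direction were given, with those not called where 20 or more were called and those against the majority; of other lists, up to 4 called genes. Ties at a limit went to the smaller p-value, then to the higher mean expression. Members shown for promoters were chosen after their values were seen.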

Additional observations from a re-analysis of the deposited data

How the results depend on the processing

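The counts of members called were recomputed with a stricter adjusted p, minimum fold changes, only well expressed genes (mean expression no lower than the median), the adjustment recomputed over those genes, and members at a limit left out. An adjusted p under 0.01 left 11 calls in c5 and 0 in c7, against 17 and 1. A minimum absolute log2 fold change of 1 left 12 in c3 and 1 in c1 against c2, against 30 and 13, and a minimum of 0.5 left 6 in c1 against c2. Without members at the limit 21 of the remaining 21 were called in c4 and 14 of the remaining 17 in c6. The recomputed adjustment gave 2 in c7. The exons of 9 members overlap those of another gene on the opposite strand, and leaving these out, a choice made after the data were seen, gave 0 calls in c7 and 8 of the remaining 26 in c1 against c2. The other counts stayed within 1.5 times, and no median changed sign. With the mean in place of the median, the values were -2.46 in c1, -2.11 in c2, 3.06 in c4 and -3.29 in c6. Centred on well expressed genes, the medians were -2.73 in c1, 3.29 in c4, 0.91 in c5, -1.76 in c6 and -1.44 in c7. Without the members at the limit in c4, also chosen after the data were seen, the median of c4 minus c3 was 1.03; another window for the shares left it within 0.1. The direction of c1 against c2 rebuilt from the levels was the same for 27 of 27 members not at the limit in c1 or c2. Both values come from the same cells and means, so this shows only that the rebuilding returned the deposited values. No paired analysis was possible because the tables name no sample, and leaving out a replicate was not possible for the same reason.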

Other observations

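Genes that shape chromosomes before mitosis were also high in c4. Condensin genes, which compact chromosomes, were called higher in c4 for 8 of 8, with a median of 3.33, beside 24.3% of all genes and 44.2% of well expressed genes. Ncapg and Ncaph stood at 4 in the authors' deposited table. They were higher in c3 for 8 of 8 as well, with a median of 0.73, beside 18.1% of all genes and 32.5% of well expressed ones, led by Ncapg2 at 1.68 in the authors' deposited table. In c1 against c2, 5 of the 8 were lower and none higher by the authors' adjusted p-value, beside 22% of all genes and 37.2% of well expressed genes lower, with Ncapg at -1.50 and Ncaph at -0.91 in the authors' deposited table. Ncapg and Ncaph stood at the lower limit in c1 against the rest, so these values compare very low levels. Cohesin genes were higher in c4 for 11 of 12 but with a median of 0.93. Esco2, which acetylates cohesin, and Cdca5, which stabilises it on chromatin, were at 4 in the authors' deposited table, while the core subunits Rad21 and Smc3 were at 1.85 and 1.16. In c1 against c2, 9 of the 12 were lower, against the same shares, with a median of -0.27, and 1 was higher, Esco2 at 1.90 in the authors' deposited table. Esco2 stood at the lower limit in both c1 and c2 against the rest. Its estimated levels there were at most 0.0163 and 0.0147, so its 1.90 compares very low levels.

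Among 11 genes of factors known to control mitotic genes, 10 were higher in c4, with a median of 1.37, beside 24.3% of all genes and 44.2% of well expressed genes. The values ran from -0.05 for Rbl2, which was not called, to 4 for Foxm1 in the authors' deposited table. Foxm1, a transcription factor of mitotic genes, was at 4 in c4, -0.64 in c3 and 1.53 in c5 in the authors' deposited table. Its c3 value was chosen after the values were seen and is against cells that include c4. The estimated level of Foxm1 was 0.0413 in c3, 0.0122 in c2 and 0.00674 in c1. Mybl2, which joins the MuvB core in cycling cells, was at 3.11 in c4 and 2.27 in c3 in the authors' deposited table.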
